A study of Mus musculus with 4 samples.

Results

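The genes described here are 10 precursors of neuropeptides, Pnoc, Npy, Sst, Tac1, Tac2, Penk, Pdyn, Cck, Nts and Cartpt, and all 10 have a row among the 16600 genes of the single-cell table. They were chosen by name, as a family. A neuropeptide is made as a longer precursor protein, which convertases cut inside secretory vesicles into one or several short signalling peptides. In the adult forebrain, Sst, Npy, Pnoc, Cck, Tac1, Penk and Pdyn are widely used to tell classes of GABAergic neurons apart, and Tac1 and Penk mark the direct and indirect pathway neurons of the striatum. Before birth most of these cells are still being made or are migrating, and their precursor genes are only beginning to be transcribed.

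Single-cell RNA-Seq was performed on CD24+ CD45- cells sorted from the cortex of C57BL/6J fetuses at E18.5, from 2 Setd5+/+ and 2 Setd5+/- fetuses. CD24 is a surface protein of neurons and CD45 one of blood cells. The Setd5+/- fetuses carry 1 copy of the Setd5 GFP allele, which the study uses as a heterozygous knockout. Libraries came from the 10x Genomics 3′ v2 chemistry: each transcript is read once near its 3′ end and counted by a unique molecular identifier (UMI), so a UMI count does not grow with transcript length. The libraries are named by the prefixes of their cell names, WT3 and WT6 for Setd5+/+ and Het5 and Het9 for Setd5+/-. Levels below are means over cells of UMIs per 10000 UMIs of the cell.

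The 4 libraries held 1445 to 1954 cells and 8205330 to 11742956 UMIs, with medians of 5398 to 5997 UMIs per cell and 6562 cells in all. Setd5 was at 1.18 and 1.07 in WT3 and WT6 and at 0.54 and 0.586 in Het5 and Het9 (log2 difference -0.89, limma adjusted p = 0.00696). Genotype moved together with fetal sex: Xist was at 20.6 and 21.5 in the Setd5+/+ libraries and at 0.152 and 0.31 in the Setd5+/- libraries, and the Y-linked gene Eif2s3y was at 0 and 0 against 0.573 and 0.67, so genotype and sex cannot be told apart in any comparison below. A barcode present in more than 1 library was carried by 277 cells, 145 of them in a melanocyte-like cluster of 147 cells and 94 in an immune cell-like cluster of 132 cells; of the cells with a member's UMI, only 4 with Npy, 1 with Sst and 2 with Penk carried such a barcode.

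Cells were grouped into 13 clusters with the precursors left out of the genes used. Names carry the suffix -like and rest on marker genes. The clusters that matter here are cluster 4 (interneuron-like, 566 cells, led by Htr3a, Lhx6, Erbb4 and Nxph1), cluster 8 (striatal neuron-like, 372 cells, led by Ebf1, Zfp503 and Isl1), clusters 3 and 7 (dividing cells, 719 and 404 cells, mostly with the subpallial genes Dlx1 and Dlx2), cluster 5 (intermediate progenitor-like, 535 cells, Neurog2 and Eomes), clusters 1 and 6 (excitatory neuron-like, 1024 and 532 cells, with Cntn2 and with Nr2f2 among their leading genes), cluster 12 (110 cells, Cajal-Retzius cell or cortical hem-like, led by Reln and Rspo3) and cluster 0 (unnamed, 1132 cells, led by Cxcl12 and Cdh8). A sort for cortex thus also held striatal and dividing subpallial cells.

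The gene loci are given on GRCm38 from GENCODE M21, the same assembly as the mm10 named by the submitters. Npy lies at chr6:49822710-49829507 on the plus strand, Tac2 at chr10:127724478-127731768 on the plus strand, Sst at chr16:23889573-23890958 on the minus strand, Pnoc at chr14:65400673-65425472 on the minus strand and Cck at chr9:121489824-121495694 on the minus strand. Tac1 lies at chr6:7554879-7565834 (plus strand), and Penk at chr4:4133531-4138819, Pdyn at chr2:129686565-129699844, Nts at chr10:102481756-102490486 and Cartpt at chr13:99898489-99901091 lie on the minus strand. RefSeq promoter sequence (GRCm38.p6) was at hand for 8 of the 10 genes, all but Pnoc and Penk. The first pair below is shown because Npy and Tac2 hold most of the family's UMIs, and gives the 120 bases before the transcription start, 5′ to 3′ on the gene's strand, at chr6:49822590-49822709 and chr10:127724358-127724477. The second pair shows the sites of the cAMP response element TGACGTCA in the family, in capitals within 30 bases, at chr16:23890874-23890903 and chr13:99900777-99900806, both on the minus strand.
Npy: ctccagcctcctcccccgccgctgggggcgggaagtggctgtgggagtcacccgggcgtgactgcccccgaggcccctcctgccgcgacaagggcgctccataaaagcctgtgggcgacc
Tac2: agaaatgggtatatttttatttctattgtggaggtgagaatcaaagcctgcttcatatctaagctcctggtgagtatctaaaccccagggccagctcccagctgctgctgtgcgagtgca
Sst: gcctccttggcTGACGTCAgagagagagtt
Cartpt: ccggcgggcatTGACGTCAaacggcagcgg
The element begins 48 bases before the RefSeq start of Sst and 112 bases before that of Cartpt, and GENCODE M21 places part of each gene further upstream, so that both sites lie inside the GENCODE gene span. Of 32851 RefSeq promoters, 1.55% hold TGACGTCA in the 250 bases before the start. The E-box letters CAGATG or CATCTG were found before Tac1, Cck and Cartpt and in 14.4% of all promoters, the homeodomain letters TAATTA before Tac1 and in 4.84% of all, and TATAAA, searched on the gene's strand only, before none of the 8 and in 7.59% of all. The other motifs were searched on both strands. These matches are descriptions of letters and were not set against the levels.

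The family's UMIs were spread very unevenly. Tac2 held 1264 UMIs in 232 cells and Npy 849 UMIs in 257 cells. Pnoc, the precursor of nociceptin, held 123 UMIs in 74 cells, Sst, the precursor of somatostatin, 103 UMIs in 25 cells, and Cck, the precursor of cholecystokinin, 90 UMIs in 66 cells. Penk, the enkephalin precursor, had 41 UMIs in 36 cells, Nts, the neurotensin precursor, 26 in 14, Tac1, which encodes substance P, 15 in 13, Cartpt 6 in 4 and Pdyn, the dynorphin precursor, 3 in 3. The genes thus fall into a pair with many UMIs, a middle group of Pnoc, Sst and Cck, and 5 genes with at most 41 UMIs. For these 5 a zero in a library says little. Sst is in the middle group only through 1 cell, which held 70 of its 103 UMIs. Pdyn was seen in 0 of 1710 Het5 cells, which allows a share of up to 0.175%, and in 0 of 1445 Het9 cells, which allows up to 0.208%. Such limits and all intervals below are exact Clopper-Pearson 95% intervals or counts of 3, and cover counting error only.

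**Figure D1:**
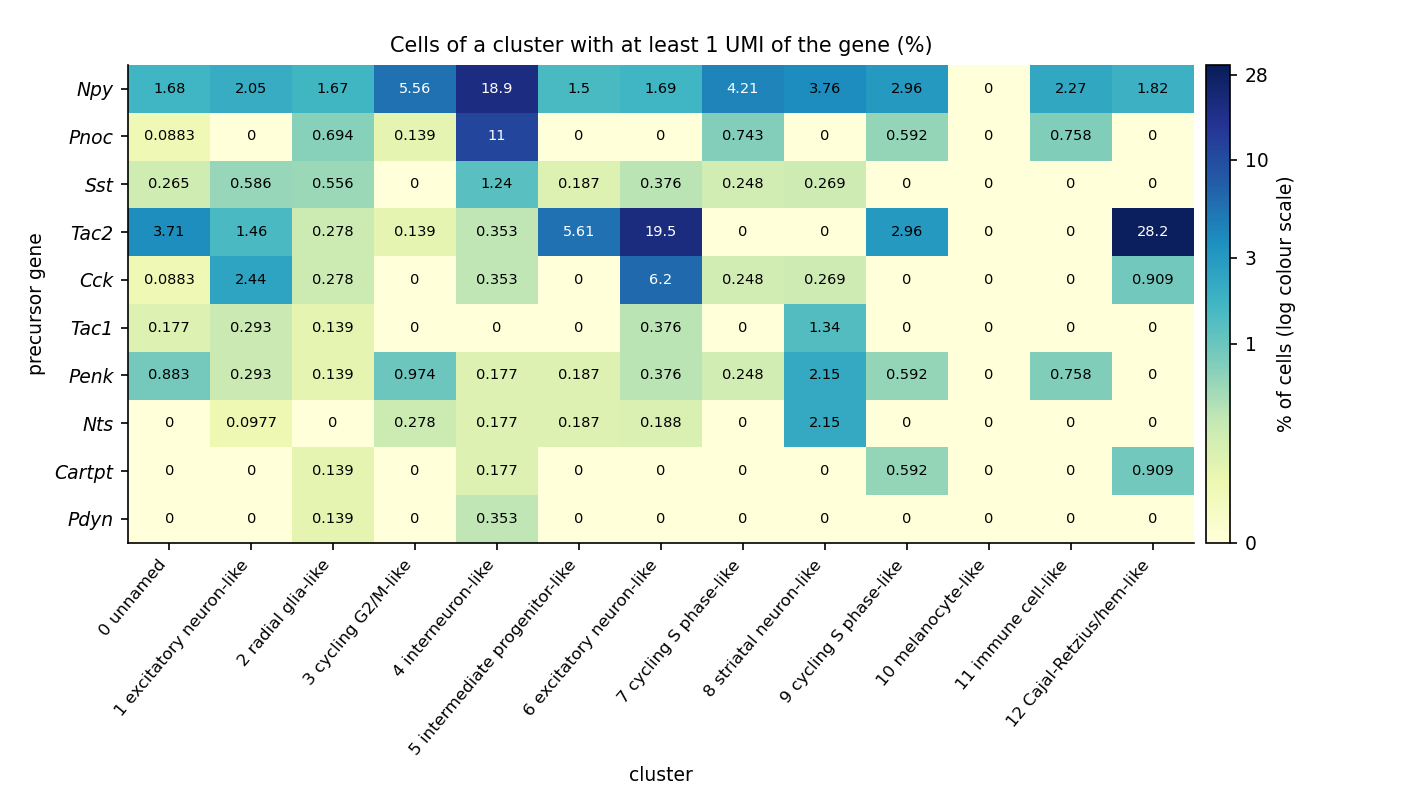
Share of the cells of each of 13 clusters (columns) that hold at least 1 UMI of each precursor gene (rows), in percent, over all 4 libraries and on a log colour scale. Npy and Pnoc peak in cluster 4 (18.9% and 11% of cells), Tac2 in clusters 12 and 6 (28.2% and 19.5%), Cck in cluster 6 (6.2%), and Tac1, Penk and Nts in cluster 8 (1.34%, 2.15% and 2.15%).

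Npy, which encodes neuropeptide Y, was highest in the interneuron-like cluster 4, with library means of 3.21 in WT3, 2.38 in WT6, 2.65 in Het5 and 2.74 in Het9 (mean 2.75 ± 0.346 SD, n = 4 libraries). All 4 libraries lay above every library of every other cluster. The dividing clusters 3 and 7 and the striatal neuron-like cluster 8 followed with means of 0.308, 0.186 and 0.207, and the libraries of these 3 overlapped. Elsewhere the mean was at most 0.0525. A UMI of Npy was found in 18.9% of cluster 4 cells (95% interval 15.8 to 22.4, median depth 3986 UMIs), against 1.5% in the intermediate progenitor-like cluster 5 (median 6396), a type of the excitatory lineage not known for Npy. Thinned to 3000 UMIs per cell, the shares were 15.7% and 0.381%. In the thinned cells of clusters 3 and 7 the shares were 3.67% and 3.04%, against 0.381% to 1.21% in clusters 0, 1, 2, 5, 6, 9 and 12. The shallow cluster 11 (median 1939 UMIs before thinning) gave 3.33%, on very few cells. Before thinning, Npy was found there in 2 cells of WT3 and 1 cell of WT6. Cluster 4 held 62.2% of all Npy UMIs and cluster 3 held 16.7%.

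Within cluster 4 the cells with Npy more often held genes of the medial ganglionic eminence (MGE), the part of the subpallium that gives rise to somatostatin and parvalbumin interneurons. Of the 107 Npy cells, 59.8% held a UMI of Lhx6, the transcription factor of MGE-derived interneurons, against 29.8% of the 459 others, and 31.8% against 15.7% held Maf, with the same direction in 4 of 4 libraries for both. Zic1 went the other way (10.3% against 29%, in 4 of 4 libraries). Their median depth was lower than that of the other cells (3652 against 4050 UMIs). The genes compared in this way within clusters were chosen after values had been seen.

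Lhx6 and Nkx2-1 were also found with Npy in the dividing clusters. In cluster 3, 57.5% of the 40 Npy cells held Lhx6 against 12.4% of the 679 others, and 55% against 20.6% held Nkx2-1, the factor that specifies the MGE. In cluster 7 Nkx2-1 was found in 52.9% of the 17 Npy cells and in 19.6% of the 387 others. Some dividing cells held many copies: of the 24 cells with 10 or more Npy UMIs, 17 lay in cluster 4, 4 in cluster 3, 2 in cluster 7 and 1 in cluster 2. The highest, with 33 UMIs of 3480, was a Het9 cell of cluster 4. Over all cells with 2 or more Npy UMIs (112 cells, in 4 libraries), the 5 genes with the largest excess were Lhx6 (3.29 against 0.208), Nxph1, Erbb4, Maf and Fam65b. Across the 13 clusters the pattern of log2 means most like that of Npy was that of Lhx6 and Erbb4 (r = 0.95 for each) and Lhx8 (0.94), a description over clusters that share libraries.

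Pnoc was found almost only in cluster 4, which held 109 of its 123 UMIs (88.6%). The library means there were 0.472 in WT3, 0.465 in WT6, 0.235 in Het5 and 0.142 in Het9. A UMI was found in 11% of cluster 4 cells (95% interval 8.5 to 13.8) and in 0 of 1024 cells of the excitatory neuron-like cluster 1, which allows a share of up to 0.293% at a median depth of 5676.5 UMIs. No cell held more than 5 UMIs. Thinned to 3000 UMIs, 8.09% of cluster 4 cells had Pnoc.

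The factors found more often in the Pnoc cells of cluster 4 were not those of its Npy cells. Of the 62 Pnoc cells, 83.9% held Zic1 and 79% held Zic4, against 18.3% and 12.3% of the 504 others. Only 4.84% held Lhx6, against 39.3%, which is the reverse of the Npy cells. Zic1 and Zic4 encode zinc finger factors which, together with Sp8, are known from neuroblasts on their way to the olfactory bulb. Sp8 was found in 33.9% of Pnoc cells against 12.1% (4 of 4 libraries). Etv1, another gene used as a marker of such neuroblasts, went the other way (11.3% against 21.2%). Isl1, a leading gene of the striatal neuron-like cluster, was found in 54.1% of the 74 Pnoc cells of all clusters, against 6.2% of other cells. The identity of the Pnoc cells was not tested. Depth moved with Pnoc: its cells had a median of 5881 UMIs against 3810, and its part in these shares was not tested. Over all cells, the 33 with 2 or more Pnoc UMIs were led by Zic4 (6.78 against 0.266), Zic1 (12.2 against 0.64), Zic5, Islr2 and Slc10a4. Both precursors were found together in 7 cells, 9.46% of the 74 Pnoc cells and 2.72% of the 257 Npy cells, where Npy was in 3.92% of all cells and 18.9% of cluster 4. The cluster means of Pnoc were most like those of Nxph1, Htr3a and Erbb4 (r = 0.96, 0.96 and 0.93 over 13 clusters), genes that the Pnoc cells themselves mostly lack: Htr3a was found in 3.23% of them and in 24% of the other cells of cluster 4.

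Cells of cluster 4 were therefore split by transcription factor UMIs, a split made after the values above were seen. A UMI of Lhx6 and none of Zic1 or Zic4 was found in 45, 58, 43 and 29 cells of WT3, WT6, Het5 and Het9. Npy was found in 17, 21, 12 and 11 of these (37.8%, 36.2%, 27.9% and 37.9%), and Pnoc in 0, 0, 1 and 0. Zic1 or Zic4 without Lhx6 was found in 38, 62, 20 and 2 cells, with Pnoc in 17, 30, 4 and 0 of them. The share with Pnoc was 44.7% in WT3 (95% interval 28.6 to 61.7), 48.4% in WT6 (35.5 to 61.4) and 20% in Het5 (5.73 to 43.7), and the 2 such cells of Het9 give no usable share. Npy was found in 8 of all 122 cells of this class (6.56%), each with 1 UMI. The Zic class made up 2.62%, 3.17%, 1.17% and 0.138% of all cells of the 4 libraries, and the Lhx6 class 3.1%, 2.97%, 2.51% and 2.01%. As shares of all cells both classes were lower in both Setd5+/- libraries, as was cluster 4 itself. As a share of cluster 4, the Lhx6 class made up 34.1% and 25.2% against 36.8% and 33.3%, with overlap. The Zic class made up 28.8% and 27% of cluster 4 against 17.1% and 2.3%. Both kinds of factor were found in 26 cells and none in 243, of which 35 held Npy and 8 held Pnoc.

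**Figure D2:**
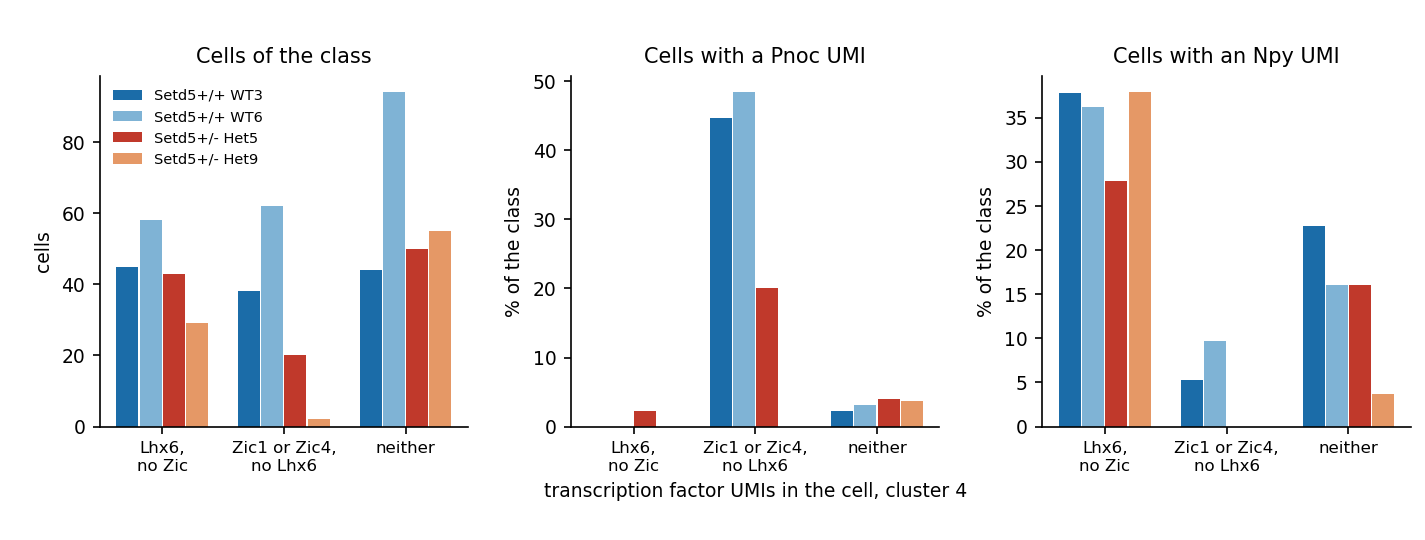
Cells of cluster 4 by library and by whether they hold a UMI of Lhx6 without Zic1 or Zic4, of Zic1 or Zic4 without Lhx6, or of none of the 3 (the number of cells, then the percent of the class with a Pnoc UMI and with an Npy UMI). Pnoc is in 44.7% and 48.4% of the Zic class in WT3 and WT6, Npy is in 27.9% to 37.9% of the Lhx6 class in all 4 libraries, and the Zic class of Het9 has only 2 cells.

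Sst was dominated by 1 cell. That cell, of library WT3 and cluster 4, held 70 of the 103 Sst UMIs (68%), and Sst was its second most abundant transcript at 190 per 10000. It had 3685 UMIs, was not called a doublet, carried a barcode of its own, and held 6 UMIs of Lhx6, 5 of Sox6, 5 of Nrxn3 and 4 of Gad2, with none of Zic1, Npy or Pnoc. The next highest cell, in Het5, held 7 Sst UMIs. The cluster 4 means were 1.54 in WT3, 0.0394 in WT6, 0.174 in Het5 and 0 in Het9, and WT3 fell to 0.104 without the 1 cell. Of the 7 cells of cluster 4 with Sst, 4 held Lhx6, 5 Maf, 5 Erbb4 and none Zic1 or Zic4. Of all cells of cluster 4, 30.9% held Lhx6 without Zic1 or Zic4, 4.59% held both kinds and 21.6% held Zic1 or Zic4 without Lhx6. The counts on 7 cells were not tested against these shares. All 18 Sst cells outside cluster 4 held a single UMI, in at most 0.586% of any cluster. Over clusters the means of Sst were most like those of Htr3a, Nxph1 and Erbb4 (r = 0.98, 0.98 and 0.95), with its own level set by that 1 cell.

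**Figure D3:**
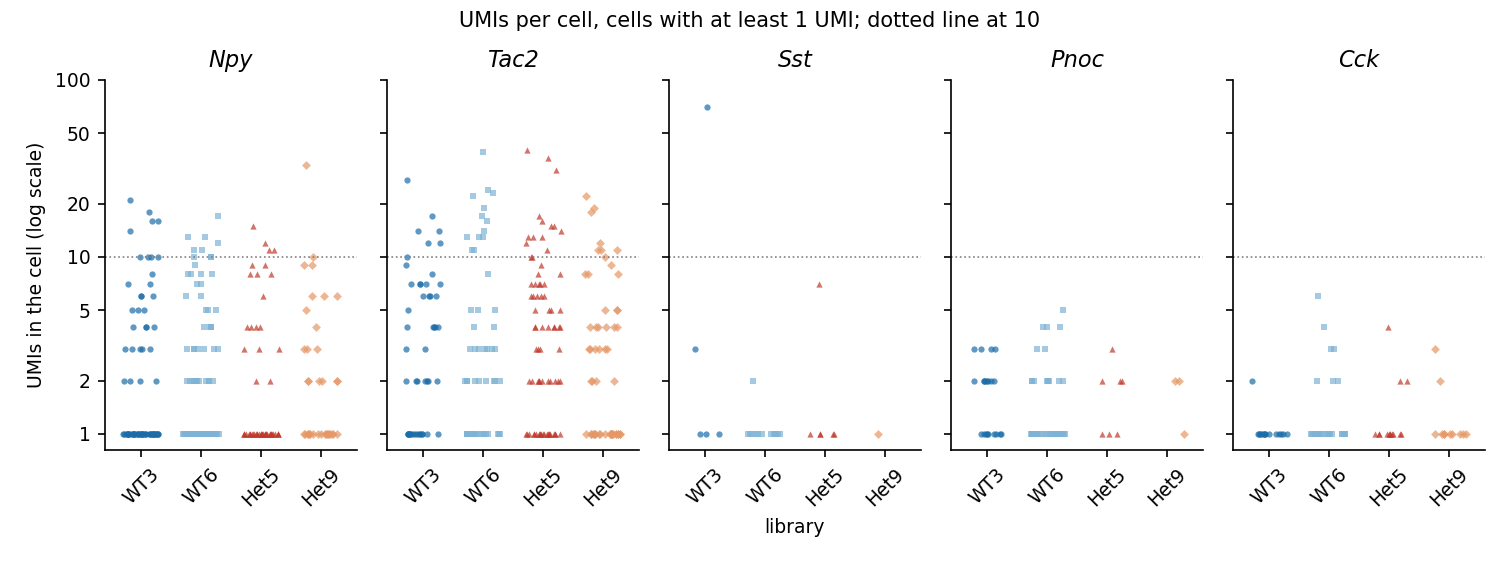
UMIs of Npy, Tac2, Sst, Pnoc and Cck in each cell with at least 1 UMI, by library (x axis) on a log scale, with the horizontal position inside a library drawn at random. Npy and Tac2 reach 33 and 40 UMIs and have cells at 10 or more in all 4 libraries, while Sst has 1 cell at 70 and a next highest of 7, and Pnoc and Cck stay at or under 5 and 6.

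A gene was called few-cell high-count if its mean was under 0.1 UMI per cell and at least 1 cell held 10 or more UMIs. Of 7866 genes with such a mean and at least 10 UMIs, 130 met this (1.65%). Of the 10 precursors, 6 could be tested, Npy and Tac2 having higher means and Pdyn and Cartpt too few UMIs, and only Sst met it, through the cell described. With 5 UMIs in place of 10 the share of all genes was 8.20%, and Pnoc, Sst, Cck and Nts met it, 4 of 6. In cells thinned to 3000 UMIs, with 10 UMIs again, 0.742% of 8757 genes met it and so did Npy, Sst and Tac2, 3 of 7 tested. Tac2 and Npy have the same shape at a higher mean: 43 cells with 10 or more UMIs held 57% of all Tac2 UMIs and 24 cells held 38.2% of all Npy UMIs, while 33.6% of Tac2 cells and 56.4% of Npy cells held a single UMI. The 10 highest cells held 22.4% and 20.7% of the UMIs of Tac2 and Npy, so neither rested on 1 cell.

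Tac2, the precursor of neurokinin B, was highest in clusters 12 and 6. Its library means in cluster 12 were 1.78, 2.07, 3.9 and 0.438 (WT3, WT6, Het5, Het9) and in cluster 6 they were 1.83, 1.29, 2.28 and 1.27. The libraries of these clusters overlapped, so their order was not settled. Cluster 5 followed at 0.379 ± 0.151 and cluster 0 at 0.222 ± 0.0596 (SD, n = 4), and every library of cluster 6 lay above every library of cluster 5. The larger excitatory neuron-like cluster 1 had little Tac2, at 0.0305 and in 1.46% of its cells. Of the 43 cells with 10 or more Tac2 UMIs, 30 lay in cluster 6, 6 in cluster 5, 5 in cluster 12 and 2 in cluster 0, and the highest held 40 UMIs (Het5, cluster 6). Tac2 was found in 28.2% of cluster 12 cells (95% interval 20 to 37.6), 19.5% of cluster 6 cells and 5.61% of cluster 5 cells, against 2 of 566 cells (0.353%) in the interneuron-like cluster 4 and 0 of 372 in cluster 8, which allows up to 0.806%. Median depths were 8211, 7237.5, 6396, 3986 and 3650.5 UMIs. Thinned to 3000 UMIs, the first 3 shares were 18.2%, 15.6% and 4.38%, and that in cluster 4 was 0.225%.

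**Figure D4:**
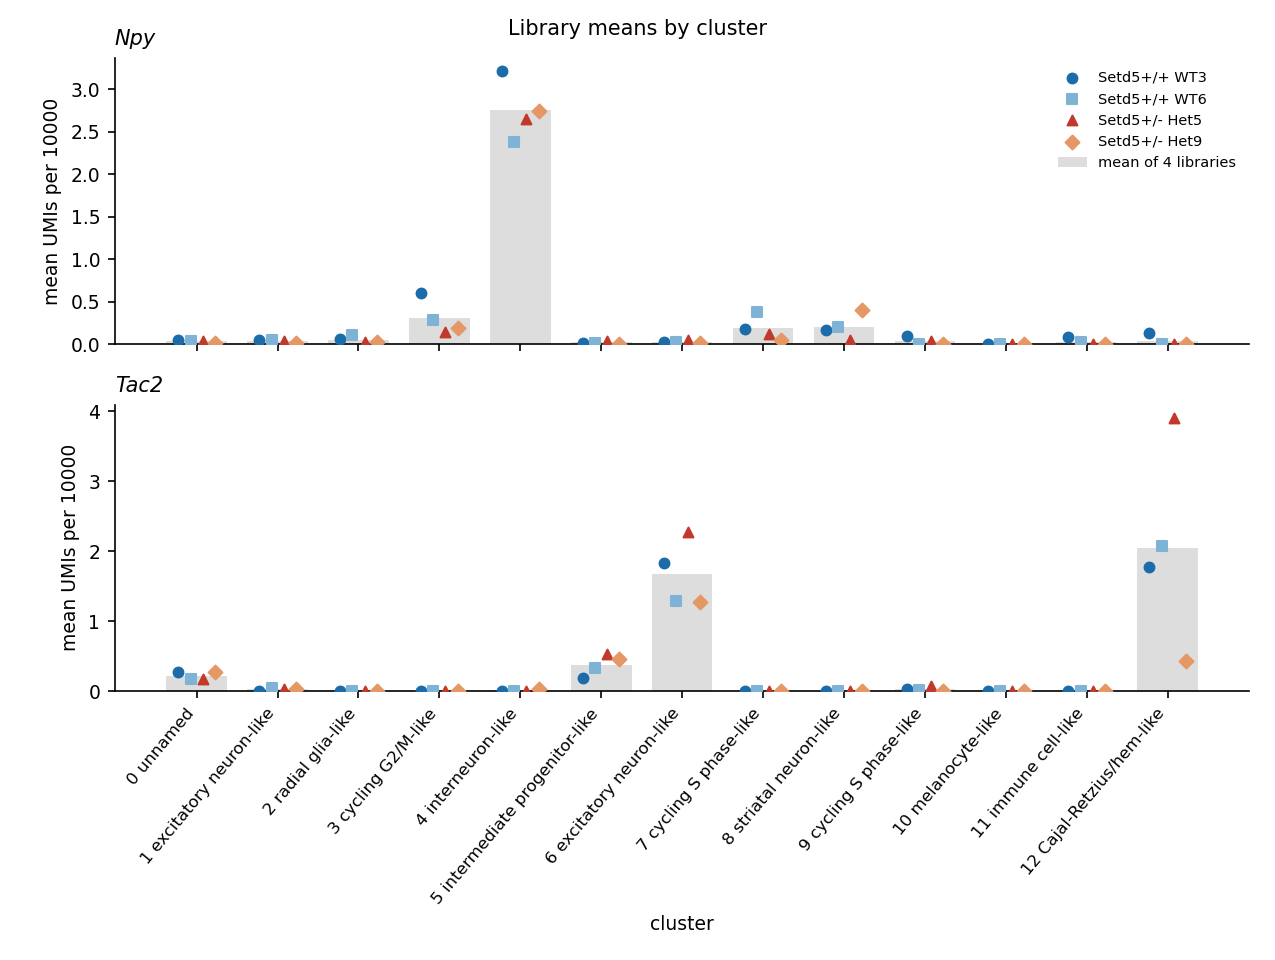
Mean UMIs per 10000 of Npy (top) and Tac2 (bottom) in each cluster, with 1 point per library and a bar at the mean of the 4 libraries. Npy stands out in cluster 4 (2.38 to 3.21) and Tac2 in clusters 6 (1.27 to 2.28) and 12 (0.438 to 3.9), where the libraries spread most.

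The Tac2 cells of cluster 5 held genes of young excitatory neurons more often than the rest of that cluster. Neurod1 was found in 83.3% of the 30 Tac2 cells and 43.8% of the 505 others, Tbr1 in 63.3% and 23.4%, and Synpr in 53.3% and 16.8%, each in 4 of 4 libraries, while Eomes was near all cells in both (96.7% and 98.4%). Their median depth was higher (8176 against 6326 UMIs), and its part was not tested. In cluster 6 the 104 Tac2 cells held Mfap4 more often (91.3% against 46.7%) and Bcl11b, a factor of deep-layer neurons, less often (41.3% against 67.3%), at median depths of 8365 and 6832 UMIs. In cluster 12 the 31 Tac2 cells held Trp73 and Lhx1, factors of Cajal-Retzius cells, less often than the 79 others (19.4% against 35.4% and 9.68% against 36.7%, in 4 of 4 libraries each). Reln was found in 64.5% and 55.7%. Over all cells, the 154 with 2 or more Tac2 UMIs were led by Mfap4 (10.9 against 1.89), Klhdc8a, Synpr, Myo1a and Neurod1, and the cluster means most like those of Tac2 were those of Nhlh2, Lhx9 and Synpr (r = 0.97, 0.96 and 0.95 over 13 clusters).

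Cck was found in the same cluster 6 and in cluster 1, with means of 0.0987 ± 0.0389 and 0.0426 ± 0.0182 (SD, n = 4), and every library of cluster 6 lay above every library of cluster 1. It was found in 6.2% and 2.44% of their cells, and in 0 of 719 cells of cluster 3, which allows up to 0.417%. Thinned, the shares were 2.63% and 0.626%. In cluster 6, 84.8% of the 33 Cck cells held Fezf2, a factor of subcortically projecting neurons, against 50.9% of the others, and 12.1% against 58.3% held Tbr1 (both in 4 of 4 libraries, at median depths of 9198 and 7031 UMIs). For the Tac2 cells of that cluster the shares were 67.3% against 49.5% for Fezf2 and 49% against 57% for Tbr1. Both Tac2 and Cck were found in 2 cells. The 13 cells with 2 or more Cck UMIs had Ly6h, Baiap2, Bhlhe22 and Gap43 among the genes of largest excess. The genes most like Cck over the 13 clusters were Hecw1, Adgrl3 and Gabra2 (r = 0.88, 0.88 and 0.85).

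Tac1, Penk and Nts were highest in the striatal neuron-like cluster 8, on few cells. Nts had means of 0, 0.153, 0.328 and 0.0567 there (WT3, WT6, Het5, Het9), Penk 0.0958, 0.0941, 0 and 0.0977, and Tac1 0.0681, 0.0727, 0 and 0.0609. The libraries with none had 67 cells (WT3) and 53 cells (Het5) in this cluster. All 5 Tac1 cells held Isl1, Ebf1 and Foxp1, factors of direct pathway striatal neurons in the case of Isl1 and Ebf1, while none of the 8 Penk cells held Ebf1 and 6 held Six3, a factor of indirect pathway neurons. The 8 Nts cells held neither Ebf1 nor Six3, and 7 held Foxp1. All 4 factors are markers of cluster 8 itself. Ebf1 and Isl1 had means of 16.1 and 3.86 in that cluster against 0.309 and 0.146 in all other cells. On so few cells, a split by direct and indirect pathway was not tested. Across clusters, Nts was most like Syt6, Foxp1 and Aldh1a3 (r = 0.92, 0.9 and 0.89). Outside cluster 8, Penk was found in 0.974% of cluster 3 cells and 0.883% of cluster 0 cells, and Tac1 in at most 0.376% of any other cluster. Pdyn and Cartpt, with 3 and 6 UMIs in all, showed no cluster. Cluster 10, melanocyte-like, had no UMI of any of the 10 genes in 147 cells, which allows up to 2.04% for each if all are distinct cells. Of them, 145 carried a barcode present in more than 1 library, so distinct cells may be fewer and the limit higher.

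Genotypes were compared with limma on log2(library mean + 0.1) over all genes with a mean of at least 0.1 over the 4 libraries, so that low changes are understated. In these 2 against 2 libraries an exact permutation test could not go below p = 0.33. In library means, fewer cells of a type and less RNA per cell cannot be told apart. No precursor passed an adjusted p of 0.05 in all cells (0 of 2 tested, where 0.0860% of all genes were called), in the GABAergic-lineage clusters 4 and 8 (0 of 3, 0.0913%) or in 11 tests within 8 clusters. At an unadjusted p under 0.05 the numbers were 1, 1 and 4, where 4.34% of all genes in all cells, 5.47% in the GABAergic lineage and 4.57%, 5.87%, 5.34% and 5.49% in clusters 3, 4, 5 and 7, which held those 4 tests, stood under it. The shares of all genes called in those clusters were 0.144% in cluster 0, 0.108% in cluster 3, 0.117% in cluster 4, 0.133% in cluster 5, 0.0777% in cluster 6, 0.108% in cluster 7, 0.146% in cluster 8 and 0.0735% in cluster 12.

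Over all cells Npy was at 0.423 and 0.384 in WT3 and WT6 and at 0.233 and 0.221 in Het5 and Het9, with no overlap. The log2 difference was -0.62 (SE 0.0798, limma adjusted p = 0.083). It missed the threshold, and 16.4% of all genes tested were, like Npy, lower in both heterozygous libraries than in both wild-type ones. The number of cells with Npy was 74 of 1453 and 94 of 1954 against 53 of 1710 and 36 of 1445 (5.09%, 4.81%, 3.1% and 2.49%). The share of cells in cluster 4 moved with it, at 9.08% and 11.8% against 6.84% and 6.02%, 1 of 4 clusters of 13 whose shares did not overlap between genotypes (clusters 1, 4, 5 and 6). Within cluster 4 the level of Npy was 3.21 and 2.38 against 2.65 and 2.74, with overlap (log2 difference -0.03, SE 0.165, limma adjusted p = 0.986). With the cells grouped more finely, the part of cluster 4 with most of its Npy (420 cells) had 4.64 and 3.55 against 3.27 and 2.84, without overlap, as for 16.8% of genes (log2 difference -0.4, SE 0.174, limma adjusted p = 0.995). With every library given the same cluster shares, an alternative chosen after seeing the data, the all-cell means were 0.396 and 0.302 against 0.28 and 0.294 (log2 difference -0.21, limma adjusted p = 0.903).

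In the dividing cells Npy lay lower in both Setd5+/- libraries. Cluster 3 had 0.605 and 0.283 against 0.149 and 0.197 (log2 difference -0.93, SE 0.247, limma adjusted p = 0.696), and cluster 7 had 0.179 and 0.384 against 0.125 and 0.0562 (log2 difference -0.97, SE 0.34, limma adjusted p = 0.809). Of all genes tested there, 16.6% and 16.7% were likewise lower in both. The cluster 3 difference depended on the libraries used: it was -0.49 (limma adjusted p = 1.0) without WT3, -1.37 (adjusted p = 0.0506) without WT6, -0.81 (adjusted p = 0.0345) without Het5 and -1.06 (adjusted p = 0.00288) without Het9. In cluster 7 it ran from -1.37 without WT3 to -0.57 without WT6 and did not pass in any of these 4 fits. When cells were grouped more coarsely, at a resolution 0.3 lower, clusters 3 and 7 fell almost wholly into 1 cluster of 1127 cells, in which Npy was at 0.464 and 0.32 against 0.141 and 0.141 and passed the test (log2 difference -1.01, SE 0.177, limma adjusted p = 0.0125), among 0.200% of all genes called there. Grouped more finely, at a resolution 0.3 higher, the dividing cells gave no call: Npy was at 0.849 and 0.211 against 0.309 and 0.143 in a cluster of 357 cells, with overlap (limma adjusted p = 0.979), at 0.386 and 0.351 against 0.1 and 0.253 in one of 367 cells (adjusted p = 0.944) and at 0.181 and 0.399 against 0.0176 and 0.0577 in one of 388 cells (adjusted p = 0.101). The latter 2 clusters had no overlap, as for 16.7% and 16.9% of genes. In the coarser cluster, the share of cells with a UMI of Lhx6 or Nkx2-1 was 29.4% and 24.7% against 22.5% and 12.2%, and within those cells Npy was found in 12 of 84 and 14 of 87 against 5 of 66 and 6 of 24, at means of 1.2 and 0.794 against 0.584 and 0.884. In the remaining cells of that cluster Npy was found in 2.48% and 3.77% against 0.441% and 1.74%. The means there were 0.16 and 0.164 against 0.0126 and 0.0375. The number of cells with Lhx6 or Nkx2-1 thus moved with the level of Npy, and so did Npy in the cells without them. The part of either in the result was not tested.

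Pnoc did not reach the filter over all cells (0.0472 and 0.0633 against 0.0161 and 0.0102). Without the filter its log2 difference was -0.46 (SE 0.0685, limma adjusted p = 0.299). It was found in 21 and 43 Setd5+/+ cells against 7 and 3 Setd5+/- cells. In cluster 4 the means of 0.472 and 0.465 against 0.235 and 0.142 did not overlap (log2 difference -1, SE 0.301, limma adjusted p = 0.554), as for 18.2% of all genes tested in that cluster. In clusters 4 and 8 together they were 0.313 and 0.275 against 0.162 and 0.0686 (log2 difference -0.91, limma adjusted p = 0.681), again without overlap, as for 19.6% of genes, and the difference passed without Het5 (-1.22, limma adjusted p = 0.0205) and was -0.59 (adjusted p = 0.656) without Het9. The Zic class described above moved the same way, and its part was not tested. With the cells grouped more finely, cluster 4 fell into a part of 420 cells, in which Pnoc rested on 12 UMIs in 8 cells, at 0.0669 and 0.0642 against 0.189 and 0.147 (log2 difference 0.69, SE 0.401, limma adjusted p = 0.995), and a Zic1-rich part of 44, 82, 24 and 3 cells, which held 97 of the 123 Pnoc UMIs. Pnoc was at 1.28 and 1.19 against 0.398 and 0 there, with too few cells in Het9 for a test. The cell with 70 Sst UMIs fell into the latter, without a UMI of Zic1 or Zic4.

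Sst in cluster 4 had a log2 difference of -1.53 (SE 0.759, limma adjusted p = 0.875), a value set by 1 WT3 cell: without WT3 it was 0.25, and without WT6 it was -3.31 (limma adjusted p = 0.00328). In clusters 4 and 8 together it was -1.37 (limma adjusted p = 0.902), 0.18 without WT3, and past the threshold without WT6 (-2.92, limma adjusted p = 6.4e-12) or without Het5 (-1.94, limma adjusted p = 0.0114). With that cell left out, Sst fell below the filter in both.

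Tac2 over all cells was at 0.245 and 0.201 against 0.338 and 0.211, with overlap (log2 difference 0.2, SE 0.159, limma adjusted p = 0.994). In cluster 5 it was at 0.187 and 0.338 against 0.535 and 0.457, higher in both Setd5+/- libraries (log2 difference 0.74, SE 0.227, limma adjusted p = 0.355), like 15.9% of all genes tested there. It passed without WT6 (1.05, limma adjusted p = 0.0364) and was 0.44 (adjusted p = 0.999) without WT3. It rested there on 30 cells. In cluster 6 the libraries overlapped (log2 difference 0.14, limma adjusted p = 0.963), in cluster 0 likewise (0.01, adjusted p = 0.998), and in cluster 12 Het5 was the highest and Het9 the lowest of the 4 (log2 difference -0.46, SE 0.518, limma adjusted p = 0.969), where the fitted difference is of log values and runs against the plain means (2.17 in Setd5+/- and 1.92 in Setd5+/+). In cluster 8 Npy (-0.05) and Nts (0.7) had limma adjusted p of 0.994 and 0.937, and for Npy too the plain means ran the other way (0.227 against 0.186). Cck, Penk, Tac1, Cartpt and Pdyn were below the filter in each of these comparisons. Without the filter, Penk over all cells was at 0.0168 and 0.0175 against 0.0033 and 0.0106 (log2 difference -0.13, limma adjusted p = 0.827) and Cck at 0.0181 and 0.0262 against 0.0136 and 0.0124 (-0.11, adjusted p = 0.946). With the cells grouped more finely, at a resolution 0.3 higher, Cck passed the filter in 1 excitatory cluster, at 0.145 and 0.167 against 0.115 and 0.102 (log2 difference -0.29, limma adjusted p = 0.906), and with the precursors kept in the clustering in 1 cluster of 494 cells, at 0.0945 and 0.146 against 0.0898 and 0.0778 (-0.25, adjusted p = 0.919). The difference of a cluster's genotype difference from that of the other cells passed for no precursor in 7 tests, the smallest limma adjusted p being 0.921, with 0 at an unadjusted p under 0.05. No gene passed it in any of the 7 comparisons (0.00% of 6996 to 7390 genes). The genotype difference of Npy in cluster 4 was set against that of other cells in no such test.

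**Figure D5:**
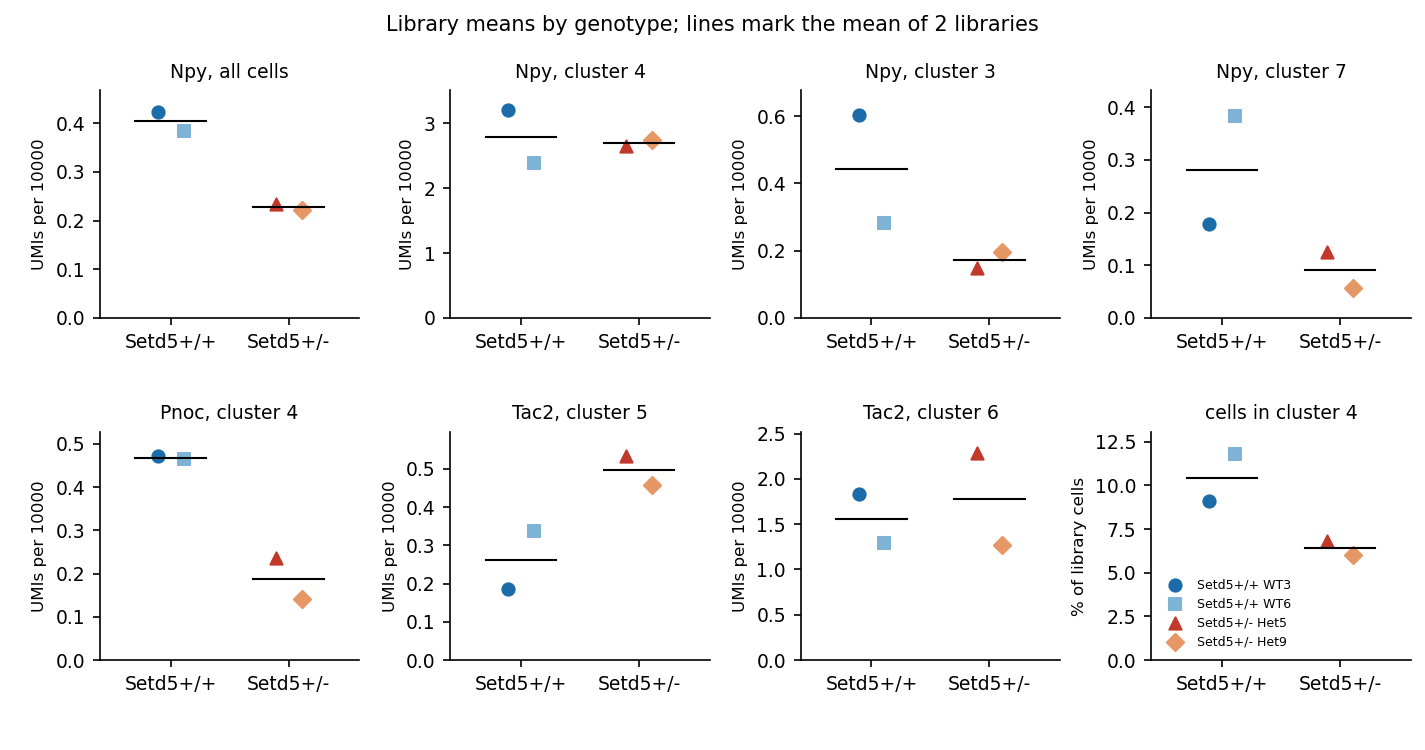
Library means of Npy, Pnoc and Tac2 in UMIs per 10000, over all cells or in the cluster named, and the percent of each library's cells in cluster 4, by genotype with 1 point per library and a line at the mean of 2 libraries. Npy over all cells (0.423 and 0.384 against 0.233 and 0.221) and the share of cluster 4 (9.08% and 11.8% against 6.84% and 6.02%) do not overlap, while Npy within cluster 4 does.

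Genes that make and read the peptides were taken from 3 lists. Of 12 genes for peptide processing and secretion, all had a row, led by Cpe, the carboxypeptidase that trims precursor fragments (9218 UMIs, highest in cluster 12), Scg5 (5587), Pam, the amidating enzyme (3804), and Scg3 (3515). Of 20 listed receptors of these peptides 14 had a row, led by the somatostatin receptor Sstr2 (6719 UMIs in 2509 cells, highest in cluster 0) and by Sort1, a sorting receptor that binds neurotensin (1104). The nociceptin receptor Oprl1 held 285 UMIs and was highest in cluster 8. Of 38 other precursors 24 had a row, with Chga (2863) and Chgb (835), granins of the secretory granule, far above Pomc (358), Nmb (193) and Grp (78). Between genotypes, none of these genes passed the test, in all cells (0 of 6, 0 of 2 and 0 of 2 tested for processing, receptors and other precursors) or in cluster 4 (0 of 7, 0 of 2 and 0 of 2). At an unadjusted p under 0.05 in these comparisons stood only Pcsk1n, an inhibitor of the convertase Pcsk1, at 0.712 and 0.762 against 0.572 and 0.615 in all cells (log2 difference -0.27, limma adjusted p = 0.771) and at 1.97 and 1.92 against 1.13 and 1.28 in cluster 4 (-0.65, adjusted p = 0.355). In cluster 6, those under it were Scg2, Chgb and Nmb, 3 of 5 other precursors tested there. The median log2 difference of the 5 was 0.39, with 1 of them lower and 2 higher in both Setd5+/- libraries. In other clusters, those under it were Pcsk2 and Scg3 in cluster 3, Cpe in cluster 7, Pcsk2 in cluster 8, and Pam and Sstr2 in cluster 12. None passed after adjustment. Of all genes, 5.44%, 4.57%, 5.49%, 5.71% and 4.43% stood under an unadjusted p of 0.05 in clusters 6, 3, 7, 8 and 12. The median log2 difference in cluster 4 was -0.08 over the 7 processing genes, against 0 over all genes.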

How the data were processed

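CD24+ CD45- cortical cells of 2 Setd5+/+ and 2 Setd5+/- fetuses were profiled. The authors deposited natural log values, ln(1 + UMIs per 10000 of the cell); the submitters' processing notes list Cell Ranger 2.1, Seurat 2.3.0 and the build mm10. Not given in the sources used here were the annotation, strand setting and cell filters. Whole UMIs were recovered for 100% of 14848520 values above 0 (tolerance 0.001), but the main test stayed on the log scale and no count model was fitted. Cell-name prefixes give genotype but no replicate number. Nothing says more of the fetuses, so p-values measure the spread between these libraries.

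Members, lists, tests and named genes were chosen with earlier results of these data known. The text names all members; for members with 10 or more cells of 2 or more UMIs, the 5 genes of largest excess in them; the 3 genes most like a member over clusters; pathway genes that pass; Setd5, sex genes and markers. Other genes were chosen after their values were seen. Some genes that this rule names are not reported here.

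Cells were clustered on 2000 variable genes without members and pathway genes (20 components, 20 neighbours, Leiden resolution 0.4). Scrublet marked 64 cells (0.975%) as doublets, which were kept. A cluster was tested with at least 20 cells in every library. Thinning to 3000 UMIs left out 526 cells (103, 169, 130 and 124 of WT3, WT6, Het5 and Het9). Few-cell genes were tested with a mean under 0.1 and at least 10 UMIs. limma with trend used Benjamini-Hochberg adjustment at 0.05 and was tested on simulated data. Software was R 4.3.3, limma 3.58.1, Python 3.11.15, scanpy 1.11.5 and leidenalg 0.10.2. Bulk RNA-Seq was not analysed here.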

Additional observations from a re-analysis of the deposited data

How the results depend on the processing

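Results were recomputed with a pseudocount of 0.01 or of 1, without the filter, with summed UMIs, without each library, without shared barcodes or doublets, at a resolution 0.3 lower or higher and members kept in the clustering. After seeing the data, equal cluster shares and leaving out the cell with 70 Sst UMIs were added. No paired analysis was possible because the cell-name prefixes carry no replicate number. Of the members' recomputed log2 differences, 158 kept their direction and side of the threshold, 7 passed it, all with 1 library left out, and 18 changed sign. With a library left out, 0 members were called in all cells, 0 to 2 in the GABAergic lineage and 0 to 2 in clusters, and at the lower resolution 1 (Npy). All-gene calls went from 7 in all cells to 6 to 34 with a library left out and 12 with equal shares, and from 7 in the GABAergic lineage to 26 to 70 with a library left out, 12 at pseudocount 1, 16 with summed UMIs and 17 without shared barcodes; the cause was not tested. Few-cell calls went from 1 to 4 with 5 UMIs, 3 of 7 when thinned (Npy and Tac2 then fall under the limit on the mean) and 0 without the Sst cell. Of 7 members, 7 kept their highest cluster when thinned and without shared barcodes, and 6 with members kept in the clustering, where Tac2 peaked in a cluster whose cells came mostly from cluster 6, with others from clusters 5 and 12. With summed UMIs Npy turned to 0.05 in the GABAergic lineage, 0.19 in cluster 4 and 0.05 in cluster 8, and at pseudocount 1 to 0.03 in cluster 8. With a library left out the range was -0.05 to 0.45 for Tac2 in all cells, -0.36 to 0.17 for Npy, -1.22 to -0.59 for Pnoc and -2.92 to 0.18 for Sst in the GABAergic lineage, -1.37 to -0.49 for Npy in cluster 3, -1.37 to -0.57 for Npy in cluster 7, 0.44 to 1.05 for Tac2 in cluster 5, -0.22 to 0.25 for Tac2 in cluster 0, -0.24 to 0.17 for Npy and -3.31 to 0.25 for Sst in cluster 4, -0.26 to 0.54 for Tac2 in cluster 6, -0.93 to 0.82 for Npy and -0.02 to 1.43 for Nts in cluster 8, and -1.91 to 0.99 for Tac2 in cluster 12. With 1 library left in a genotype, its spread was taken to equal that of the other pair. Precursors with few UMIs limit what depth can show.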
